A study of Mus musculus with 6 samples.

Results

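The lysyl oxidases and a small group of matricellular genes tied to fibrosis were followed in mouse modiolus, the central bone of the cochlea, in which the spiral ganglion lies. Lysyl oxidases are secreted copper enzymes that oxidise lysine side chains of collagen and elastin, after which the fibres become covalently cross-linked. Matricellular proteins are secreted into the matrix, where they tune how cells adhere and respond to growth factors rather than bearing load. Both classes are known from scarring tissue, where cross-linked collagen stiffens the matrix and where TGF-beta and the mechanosensitive factors YAP and TAZ drive CCN genes.

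The group was named by 10 symbols: the family Lox, Loxl1, Loxl2, Loxl3 and Loxl4, the CCN proteins Ccn1 and Ccn2, cartilage oligomeric matrix protein (Comp), periostin (Postn) and syndecan-4 (Sdc4). Of these, 9 had at least 1 transcript among the 33676 genes of the count table. The symbols were selected on earlier results for the difference in counts between degenerated and control libraries, so their fold changes and calls are given as a description, with no p-value, and are no independent evidence. Loxl1 had no listed transcript and was not analysed here, which says nothing of its expression. Loxl2 was at 0 counts in every library, on 1 of its 2 annotated transcripts, where 3 counts would have been 0.191 to 0.237 CPM (counts per 1000000 counts of the library, after TMM scaling between libraries). The other 8 members passed the filter on low counts, Loxl4 among them although its control level was low.

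The series held 6 RNA-seq libraries of C57BL/6 mouse modiolus, 3 labelled control and 3 labelled degenerated. By the study's methods, male mice aged 8 weeks received 1 g/kg kanamycin sulfate, an aminoglycoside toxic to hair cells, and 30 minutes later 0.4 g/kg furosemide, a loop diuretic, while controls received saline. Modioli were taken 30 days after the injections. In this kind of model, loss of hair cells is known to be followed by loss of spiral ganglion neurons. The labels name no transgene or engineered allele in either group. The labels do not say which animals gave which library, so the p-values below measure only the spread between these libraries.

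The libraries held 12480876 to 15549319 counts. Although labelled as spiral ganglion neurons, they were whole tissue: all 11 listed markers of these neurons were found together with myelin, bone, blood and hair cell genes. The summed neuron markers stood at 11566 to 14858 CPM in controls and 6711 to 10052 in degenerated libraries, and in such bulk samples fewer cells of a type cannot be told apart from less RNA per cell. The controls did not group together. Across genes, log2(CPM + 1) of control replicate 1 correlated with degenerated replicates 1 and 2 at Pearson's r of 0.942 and 0.939, and with the other controls at 0.913 and 0.923. Control replicate 2 correlated with degenerated replicate 3 at 0.936 and with control replicate 3 at 0.934. Summed blood and bone marrow markers were likewise 4607, 41308 and 21047 CPM in controls and 5623, 3914 and 15403 CPM in degenerated libraries. The members' log2 fold changes are therefore also given as a range over fits that each left out 1 library, and without control replicate 1.

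Of the 8 tested members, Lox, Loxl4, Ccn2 and Sdc4 were called higher in degenerated libraries and none was called lower. A call needed an unadjusted p under 0.01 and an absolute log2 fold change over 0.2 in edgeR's quasi-likelihood test, and over all 14118 tested genes it marked 2.01% as higher and 0.715% as lower, 2.73% in all. Nothing is read from the members' count, since the same contrast chose them. At a Benjamini-Hochberg adjusted p under 0.05, the quasi-likelihood test called 0 genes of the whole table, members included. In the same test 1367 genes had an unadjusted p under 0.05. DESeq2 and edgeR's exact test called 381 and 115 genes at that adjusted threshold. Lox, Loxl4, Ccn2 and Sdc4 were among the 381, and Lox and Loxl4 among the 115, from which again nothing is read. The degenerated libraries lay wholly above the controls for 4 members, where 10.3% of all genes did so, and wholly below for Comp, where 7.37% did so, 17.7% of all genes in either direction. The median log2 fold change was 0.37 over the 8 members and -0.0034 over all tested genes. Without control replicate 1 the calls of Lox, Loxl4 and Sdc4 held and that of Ccn2 did not.

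**Figure D1:**
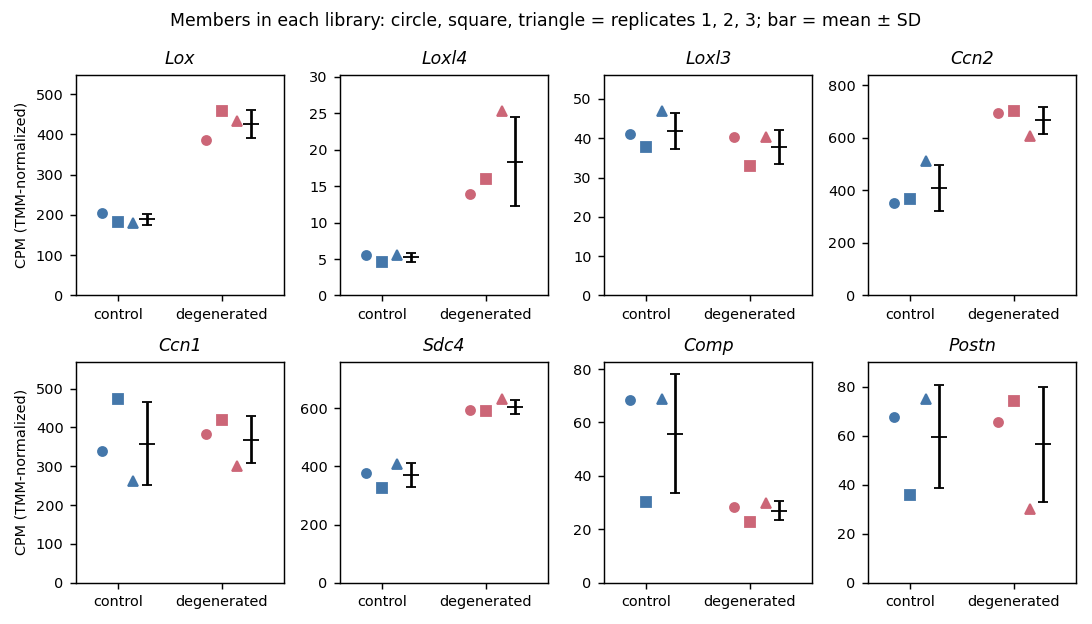
CPM of each of the 8 tested members in the 3 control and 3 degenerated libraries (1 point a library, with the mean and SD). Degenerated points lie wholly above the controls for Lox, Loxl4, Ccn2 and Sdc4, while Loxl3, Ccn1 and Postn overlap and Comp lies just below.

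Lox (ENSMUSG00000024529) encodes the founding lysyl oxidase and lies at chr18:52516067-52529867 on the minus strand (GRCm38). Its values were 206, 182 and 179 CPM in control replicates 1 to 3, and 387, 457 and 434 CPM in the degenerated replicates. The groups were far apart relative to their spread, and the lowest degenerated library stood 1.88 times above the highest control. The means were 189 ± 14.5 and 426 ± 35.8 CPM (SD, n = 3 each), a ratio of 2.25 and a log2 fold change of 1.17 ± 0.11 (SE). Of all tested genes, 4.25% had a larger log2 fold change. Leaving out any 1 library kept it between 1.11 and 1.23, and it was 1.23 without control replicate 1.

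Loxl4 (ENSMUSG00000025185, chr19:42593982-42612813, minus strand) encodes a paralogue whose amino-terminal part is built of scavenger receptor domains. It was the member with the lowest level that could be tested, at 5.56, 4.53 and 5.55 CPM in controls. In degenerated libraries it reached 13.9, 15.99 and 25.3 CPM, with replicate 3 the highest. No control reached the degenerated range, whose low end was 2.50 times the highest control. The means of 5.21 ± 0.593 and 18.4 ± 6.05 CPM gave a ratio of 3.53 and a log2 fold change of 1.82 ± 0.32, above which lay 1.48% of tested genes. The value ran from 1.52 to 1.97 when 1 library was left out and was 1.86 without control replicate 1. The largest fold of the group therefore belonged to its least abundant tested member.

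Loxl3 (ENSMUSG00000000693, chr6:83034173-83052562) encodes another scavenger-receptor-type lysyl oxidase. It gave 41.0, 37.9 and 46.8 CPM in controls and 40.3, 32.9 and 40.4 CPM in degenerated libraries. These ranges overlapped, and the log2 fold change of -0.15 ± 0.17 was smaller than its error. It moved between -0.22 and -0.065 without single libraries, and was -0.17 without control replicate 1.

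Levels of different genes can be set side by side only per transcript length, so TPM (counts per transcript length, scaled to 1000000 in each library) over the listed transcripts was used for that. In controls Lox stood at 75.2 ± 11.7 TPM, Loxl3 at 23.0 ± 1.99 and Loxl4 at 2.56 ± 0.429, and in degenerated libraries at 180 ± 21.8, 23.8 ± 2.54 and 10.2 ± 3.69. The order of the 3 enzymes was thus the same in both groups, with no overlap between neighbours. Lox made up 76.3%, 74.6% and 72.7% of the summed TPM of the 3 genes in controls and 82.8%, 86.9% and 82.3% in degenerated libraries. The share of Loxl3 was 21.2% to 24.5% in controls and 9.06% to 13.5% in degenerated libraries, and that of Loxl4 was 2.31% to 2.79% and 3.72% to 6.44%. The listed family total went from 90.2 to 116 TPM in controls to between 189 and 230.5 TPM in degenerated libraries. These sums leave out Loxl1 and any transcript the table did not list, which were 2 of 5 for Loxl3 and for Loxl4. TPM carried no TMM scaling, so differences between the groups in TPM need not match those in CPM. The mean of Loxl3 was slightly higher in degenerated libraries in TPM but lower in CPM, at 41.9 ± 4.55 in controls and 37.9 ± 4.31 in degenerated libraries.

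Over all 8 tested members the control order was Ccn1, Ccn2, Sdc4, Lox, Comp, Postn, Loxl3 and Loxl4, from 323 to 2.56 TPM. The values of Ccn1, Ccn2 and Sdc4 overlapped each other in controls, and Postn overlapped both Comp and Loxl3, though the lowest Comp control (25.7 TPM) lay just above the highest Loxl3 control (24.7 TPM). Lox and Loxl4 lay apart from all others. In degenerated libraries Ccn2 lay above Ccn1 and Sdc4 lay between them by mean, at 554 ± 49.3, 360.0 ± 66.0 and 485 ± 24.3 TPM. Ccn1 and Ccn2 stood above 97.3% and 97.2% of tested genes in control TPM, Sdc4 above 96.8% and Lox above 85.2%, but Loxl4 above only 16.4%.

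**Figure D2:**
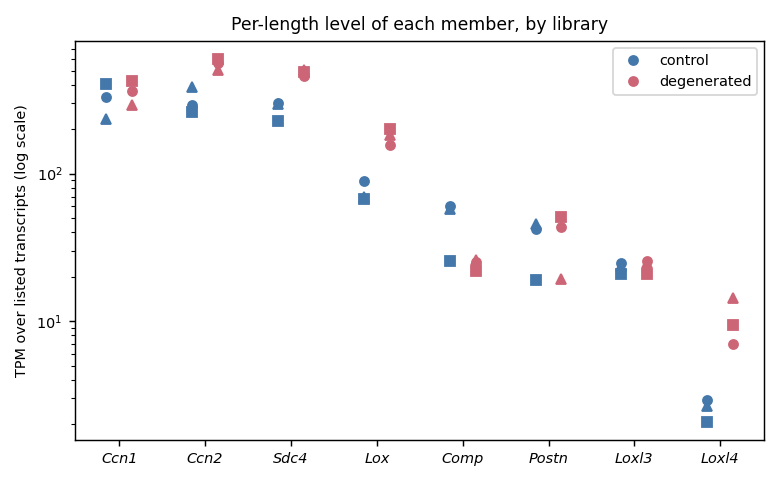
TPM over listed transcripts on a log10 axis for the 8 tested members, 1 point a library in each group. Ccn1, Ccn2 and Sdc4 lie at the top with overlapping controls, and Loxl4 the least at 2.56 TPM in controls and 10.2 TPM in degenerated libraries.

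Ccn2 (ENSMUSG00000019997, chr10:24595442-24598683), also called connective tissue growth factor, is a secreted CCN protein induced by TGF-beta and by YAP and TAZ. It was measured at 352, 366 and 510 CPM in controls and 693, 701 and 609 CPM in degenerated libraries. Control replicate 3 was the highest control and degenerated replicate 3 the lowest of its group, and they were 1.19 times apart. The means were 409 ± 87.7 and 668 ± 51.1 CPM, a ratio of 1.63 and a log2 fold change of 0.71 ± 0.17. The call was the least stable of the 4: it was missed when any library other than control replicate 3 was left out, with log2 fold changes of 0.60 to 0.89 over all 6 such fits.

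Ccn1 (ENSMUSG00000028195, chr3:145646976-145649981), or Cyr61, is the other CCN protein of the group, encoded by a classical immediate-early gene. It gave 341, 474 and 261 CPM in controls and 384, 419 and 302 CPM in degenerated libraries. The controls spanned the whole degenerated range. The log2 fold change of 0.039 ± 0.25 changed sign between -0.16 and 0.29 when single libraries were left out, and was -0.012 without control replicate 1. Within a library, the TPM ratio of Ccn2 to Ccn1 was 0.883, 0.652 and 1.66 in controls and 1.55, 1.41 and 1.71 in degenerated libraries, so control replicate 3 lay inside the degenerated range. In controls the genes stood at 314 ± 65.3 TPM for Ccn2 and 323 ± 85.7 TPM for Ccn1, a difference within their spread.

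Sdc4 (ENSMUSG00000017009, chr2:164424247-164443887, minus strand) encodes a transmembrane heparan sulfate proteoglycan of focal adhesions that binds fibronectin and growth factors. Its controls were at 378, 327 and 407 CPM and its degenerated libraries at 594, 590.2 and 633 CPM. The degenerated libraries were tightly grouped, with the lowest 1.45 times above the highest control. The means of 371 ± 40.5 and 606 ± 24.0 CPM gave a ratio of 1.63 and a log2 fold change of 0.71 ± 0.12. That value ranged from 0.62 to 0.77 without single libraries and was 0.71 without control replicate 1. Sdc4 was counted on 1 of 2 annotated transcripts. Its control mean per length was 277 ± 41.1 TPM.

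**Figure D3:**
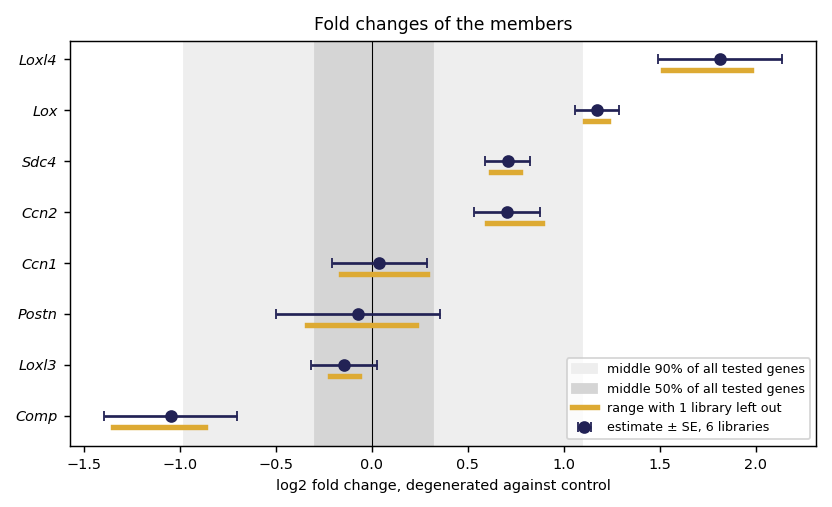
Log2 fold change (degenerated over control) of each tested member with its standard error, the range over fits that each left out 1 library, and in grey the middle 90% (-0.98 to 1.09) and 50% of all tested genes. Lox (1.17) and Loxl4 (1.82) lie farthest above 0, Comp (-1.05) lies below, and the ranges of Ccn1 and Postn cross 0.

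Comp (ENSMUSG00000031849, chr8:70373558-70382066) encodes a thrombospondin-family protein of cartilage, tendon and ligament that binds collagen fibrils. It was at 68.3, 30.3 and 68.9 CPM in controls and 28.5, 22.8 and 29.8 CPM in degenerated libraries. The controls disagreed among themselves by 2.28 times, and the low one, control replicate 2, lay only just above the degenerated libraries. In TPM that control, at 25.7, fell inside the degenerated values of 25.3, 21.9 and 26.2. The log2 fold change was -1.05 ± 0.35, and Comp was not called. It was called lower without control replicate 2, at -1.35, and by DESeq2, at -1.06, and stood at -0.88 without control replicate 1. Osteoblast and osteocyte markers moved with the groups, at 647, 1069 and 736 summed CPM in controls and 389, 300.4 and 514 in degenerated libraries. Of the 9 on the list, 5 had a listed transcript, none of them at 0, and 2 of these, Bglap and Bglap2, were called lower. Control replicate 2, low in Comp, was the highest in these bone markers. Cartilage markers overlapped, at 537 to 806 CPM in controls and 606 to 776 in degenerated libraries, with 0 of 6 called. The part of either cell type in the Comp values was not tested.

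Postn (ENSMUSG00000027750, chr3:54361109-54391037) encodes periostin, a fasciclin-domain protein of periosteum and injured connective tissue that binds collagen. Its values were 67.9, 35.7 and 75.2 CPM in controls and 65.9, 74.2 and 29.99 CPM in degenerated libraries. Each group held libraries at both ends of the range. The log2 fold change was -0.073 ± 0.43 and crossed 0 between -0.34 and 0.23 when single libraries were left out, at 0.024 without control replicate 1. The TPM ratio of Comp to Postn was 1.42, 1.35 and 1.26 in controls and 0.584, 0.433 and 1.35 in degenerated libraries, so degenerated replicate 3 lay inside the control range.

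The whole-gene sums hid unequal shares of transcripts. The members had 22 listed transcripts, of which 17 were tested, 4 were called higher and none lower, where 1.14% of 26065 tested transcripts were called higher and 0.652% lower, 1.79% in all. No member transcript passed an adjusted p of 0.05, which 0.0153% of all transcripts did (4 transcripts). The groups lay apart upward for 4 and downward for 1, against 10.5% and 6.05% of all transcripts. Counts given to transcripts of 1 gene share reads, so they are less certain than the sum.

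For Lox the call rested on 1 of its 2 transcripts. ENSMUST00000025409, of 7 exons, was at 61.2, 125 and 116 CPM in controls and 305, 360 and 325 CPM in degenerated libraries, a log2 fold change of 1.67 ± 0.28. ENSMUST00000171470, of 8 exons, was at 145, 57.0 and 63.0 CPM in controls and 81.5, 97.5 and 109 CPM in degenerated libraries, a log2 fold change of 0.075 ± 0.40. Both have the same coding length of 1233 bases and differ at their first exons. The first transcript took 29.8%, 68.7% and 64.9% of Lox counts in controls and 78.9%, 78.7% and 74.97% in degenerated libraries. Control replicate 1 was the 1 library in which the other transcript led. Its gene sum of 206 CPM was nonetheless close to those of the other controls.

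**Figure D4:**
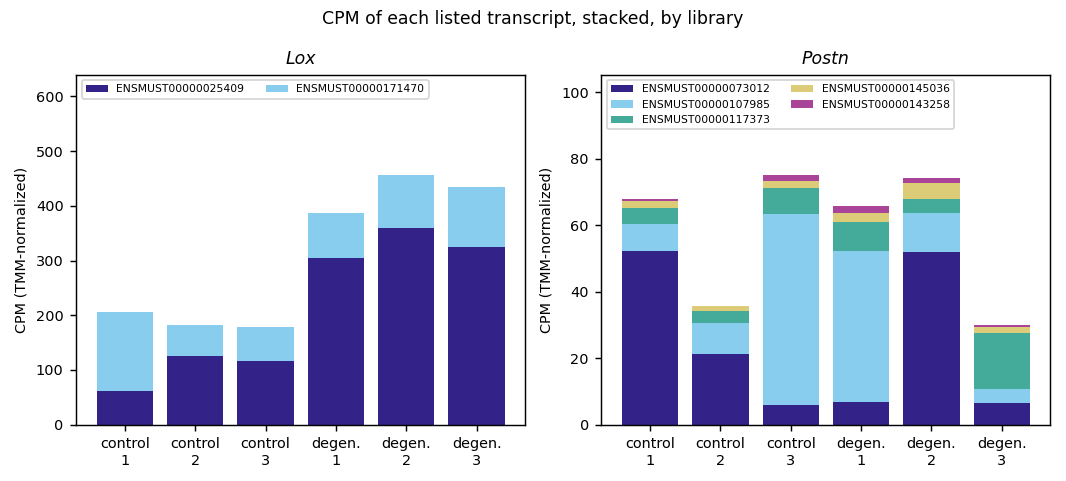
CPM of each listed transcript of Lox (left) and Postn (right), stacked as bars for each of the 6 libraries. The Lox bars grow from 179 to 206 CPM in controls to between 387 and 457 CPM in degenerated libraries, mostly through ENSMUST00000025409, and the leading Postn transcript changes between libraries of the same group.

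The Loxl4 sum came mainly from ENSMUST00000026190, at 5.56, 4.53 and 5.55 CPM in controls and 13.9, 14.2 and 21.7 CPM in degenerated libraries, a log2 fold change of 1.63 ± 0.33 that was called higher. A second transcript, ENSMUST00000164786, had 0 counts in all controls and in degenerated replicate 1, and 24 and 44 counts in degenerated replicates 2 and 3. It was not tested. The main transcript of Ccn2, ENSMUST00000020171, held 97.0% to 98.9% of its counts and had a log2 fold change of 0.67 ± 0.16, called higher. That of Sdc4, ENSMUST00000017153, was called higher as well, at 0.66 ± 0.11. Sdc4 and Ccn1 each had 1 listed transcript, and that of Ccn1, ENSMUST00000029846, was at -0.0063 ± 0.25. Neither main transcript, ENSMUST00000000707 of Loxl3 (-0.21 ± 0.20) or ENSMUST00000003659 of Comp (-1.09 ± 0.38), was called. Minor transcripts of Loxl3 (ENSMUST00000155502, 0.25 ± 0.40) and Ccn2 (ENSMUST00000176228, 0.47 ± 0.61, and ENSMUST00000129142, 0.61 ± 0.77) overlapped between the groups. The minor Comp transcript ENSMUST00000212488 (-1.06 ± 0.40) was the 1 whose degenerated libraries lay wholly below the controls.

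Periostin is known for splicing of short cassette exons near its carboxy terminus, and its transcripts in the table differ by exons 17 and 21. Their sequences are shown because they are what tells the transcripts apart. Both are from the plus strand of GRCm38 with GENCODE M21 models, exon 17 at chr3:54380412-54380492 (81 bases, 27 residues) and exon 21 at chr3:54385671-54385754 (84 bases, 28 residues), and both keep the reading frame.
Postn exon 17: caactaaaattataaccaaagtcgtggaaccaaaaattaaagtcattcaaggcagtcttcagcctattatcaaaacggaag
Postn exon 21: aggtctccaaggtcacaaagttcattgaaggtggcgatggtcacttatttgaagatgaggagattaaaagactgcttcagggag
ENSMUST00000107985 holds exon 17 and not 21, ENSMUST00000073012 holds exon 21 and not 17, and ENSMUST00000117373 holds neither.

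The transcript with exon 21 took 76.7%, 59.8% and 7.72% of Postn counts in controls and 10.2%, 70.2% and 21.8% in degenerated libraries. The transcript with exon 17 took 12.1%, 26.1% and 76.6% in controls and 69.3%, 15.7% and 13.9% in degenerated libraries. The transcript with neither took 7.02% to 10.2% in controls and 13.2%, 5.70% and 56.1% in degenerated libraries. Each of the 3 thus led in at least 1 library, and the leader changed within both groups. Over the 6 libraries the CPM of these transcripts differed by 8.97, 13.8 and 4.85 times, in the same order, against 2.51 times for the gene. Their log2 fold changes were -0.34 ± 1.13, -0.33 ± 1.15 and 0.87 ± 0.61, and none was called. The remaining ones, ENSMUST00000145036 (0.55 ± 0.44) and ENSMUST00000143258 (0.79 ± 1.26), were not called either. The transcript with both exons, ENSMUST00000081564, was not among the listed ones. Of 9 annotated Postn transcripts 5 were listed, so counts of the others were not analysed here.

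Promoters of 250 bases before the RefSeq start (GRCm38.p6) were read for Sdc4, Loxl4, Ccn1 and Postn. That of Lox was not analysed here, which says nothing of its motifs, and those of Loxl1, Loxl2, Loxl3, Ccn2 and Comp were not matched. The promoters of Sdc4 and Loxl4, which were called higher, are set beside that of Ccn1, which was not. Lox and Ccn2, also called higher, are missing from this comparison. They are read along the gene's strand, the minus strand for each, from chr2:164443189-164443438, chr19:42612807-42613056 and chr3:145649986-145650235. Capitals mark motif matches.
Sdc4 promoter: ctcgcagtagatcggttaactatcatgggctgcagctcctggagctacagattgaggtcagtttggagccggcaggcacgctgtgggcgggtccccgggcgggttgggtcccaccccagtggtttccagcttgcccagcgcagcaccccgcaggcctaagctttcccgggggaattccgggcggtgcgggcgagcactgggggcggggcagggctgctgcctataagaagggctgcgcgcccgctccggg
Loxl4 promoter: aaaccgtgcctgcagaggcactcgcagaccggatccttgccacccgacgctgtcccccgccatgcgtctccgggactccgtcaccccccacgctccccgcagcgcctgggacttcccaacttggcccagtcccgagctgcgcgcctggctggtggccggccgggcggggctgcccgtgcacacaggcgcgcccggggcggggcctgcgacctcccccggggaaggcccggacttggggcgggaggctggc
Ccn1 promoter: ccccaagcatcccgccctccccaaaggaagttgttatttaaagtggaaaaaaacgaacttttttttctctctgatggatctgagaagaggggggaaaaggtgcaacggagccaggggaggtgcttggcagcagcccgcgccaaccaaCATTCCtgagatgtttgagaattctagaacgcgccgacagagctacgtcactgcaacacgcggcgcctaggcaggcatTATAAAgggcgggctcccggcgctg
Searched on both strands were TGANTCA (AP-1), GGAATG (TEAD), CAGACA (SMAD), TATAAA (the TATA box) and the CArG box of SRF, which 6.75%, 12.6%, 17.1%, 12.4% and 1.47% of 32851 mouse promoters of that length hold. Ccn1 held GGAATG on the opposite strand, printed as CATTCC, 98 to 103 bases before the start, and TATAAA 20 to 25 bases before it. Postn held TATAAA 21 to 26 bases before the start that is nearest its listed transcripts. No match was found in the windows of Sdc4 and Loxl4. Their GC content was 68.0% and 76.0%, against 54.8% for Ccn1.

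The wider pathway was read from 7 lists of genes that are no members, with 101 tested genes. Of these, 3 were called higher (2.97%, against 2.01% of all genes) and none lower, and none passed an adjusted p of 0.05. Nothing is read from this share, since the lists were chosen with earlier results of these data known. Among enzymes that mature and cross-link collagen, 1 of 23 tested genes was called, with a median of 0.13 on the log2 scale. This gene was P4ha1, a catalytic subunit of prolyl 4-hydroxylase, at 0 counts in every control and 5.13, 34.1 and 10.02 CPM in degenerated libraries. It passed the filter on low counts only through the degenerated libraries, so its direction was fixed by the filter. It was at least 247.55-fold higher against a floor of 3 counts over the control group (adjusted p = 0.277, edgeR quasi-likelihood test). Degenerated replicate 2 decided that size, and without it the bound was 110.8-fold. It was counted on 1 of its 3 transcripts, so a shift between transcripts and a change of the gene cannot be told apart.

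Fibrillar collagens and elastin, the substrates of lysyl oxidases, were tested for 7 genes, whose median was -0.29 on the log2 scale, opposite in sign to Lox and Loxl4. Col27a1, a fibrillar collagen of cartilage, was the 1 called higher, from 27.5 ± 3.46 to 55.0 ± 9.50 CPM (log2 fold change 1.00 ± 0.20, edgeR adjusted p = 0.277). Its call was missed without degenerated replicate 1 (0.95) and without degenerated replicate 2 (0.88). Col1a2, the second chain of type I collagen, was at 1455 ± 183 and 1049 ± 219 CPM, and its groups overlapped. Col24a1 lay wholly below the controls, at 67.9 ± 9.44 and 43.7 ± 5.72 CPM, and was not called (-0.64 ± 0.18, edgeR adjusted p = 0.378). Of the 12 genes on this list 9 were listed, and Col1a1 and Col3a1 were not among the 7 tested.

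Among elastic fibre and fibronectin assembly genes, 0 of 15 were called and the median was -0.018. The smallest p in that list was that of Ltbp3, a binding protein of latent TGF-beta, at 0.16 ± 0.10 (edgeR adjusted p = 0.649). Of the other matricellular proteins, 0 of 20 were called, with a median of -0.12. Tenascin-C (Tnc), a matricellular glycoprotein of remodelling tissue, was at 121, 148 and 103 CPM in controls and 59.2, 35.5 and 87.6 CPM in degenerated libraries. Its groups did not overlap, and its log2 fold change of -1.03 ± 0.34 missed the call (edgeR adjusted p = 0.437). It was called lower by DESeq2 and without degenerated replicate 3, at -1.39. Sparcl1, of the same list, also lay wholly below the controls without a call. It was at 4941 ± 533 and 3797 ± 474 CPM (-0.38 ± 0.15, edgeR adjusted p = 0.502). Other genes of that list lay wholly apart upward without a call. Tgfbi, a periostin relative induced by TGF-beta, was at 210, 178 and 201 CPM in controls and 393, 221 and 312 CPM in degenerated libraries (0.65 ± 0.22, edgeR adjusted p = 0.438). Thbs3, a thrombospondin related to Comp, was at 5.11 ± 2.98 and 12.9 ± 3.34 CPM (1.33 ± 0.50, edgeR adjusted p = 0.480).

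Of the other syndecans and glypicans, 0 of 7 were called and the median was -0.028. The smallest p was that of the glypican Gpc2, at 18.0 ± 2.87 and 13.1 ± 1.15 CPM (-0.46 ± 0.23, edgeR adjusted p = 0.590). Sdc2, the closest relative of Sdc4, was at 242, 175 and 239 CPM in controls and 253, 253 and 262 CPM in degenerated libraries. Its groups did not overlap, and it was not called (0.23 ± 0.15, edgeR adjusted p = 0.672). YAP and TAZ targets had 1 call among 15, with a median of 0.14. It was Axl, a receptor tyrosine kinase, which went from 189 ± 11.4 to 254 ± 23.2 CPM (0.42 ± 0.11, edgeR adjusted p = 0.361). Its call was missed under 9 of 13 alternatives, the replicate block and the omission of any library but degenerated replicate 2 among them, at 0.37 to 0.46. TGF-beta ligands, receptors, Smads and early targets had 0 calls among 14 and a median of 0.17. Smad4, the common partner of receptor Smads, was at 112, 114 and 115 CPM in controls and 145, 143 and 142 CPM in degenerated libraries, a narrow but complete separation (0.33 ± 0.09, edgeR adjusted p = 0.375). It missed the call, which it passed with DESeq2 at 0.32 and with the mean count filter at 0.33.

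Markers of other cell types were summed in each library beside the members. Fibroblast markers, a usual source of Lox and the CCN proteins, were at 1820 to 2720 CPM in controls and 1580 to 2162 in degenerated libraries, with 0 of 4 called, 5 of 8 listed and Dcn, Lum and Dpt among those not listed. Smooth muscle, pericyte and myofibroblast markers had low sums that overlapped, at 27.7 to 57.4 and 22.8 to 78.6 CPM, with Cnn1 at 0 in every library. Of the 7 on that list 5 were listed and 2 were tested, Tagln and Des, with 0 called. The low sum says nothing of the markers that were not listed. Otic fibrocyte and mesenchyme markers, 3 of 6 listed, were at 1026 to 1776 and 1242 to 1602 CPM, with 1 of 3 (Otor) called lower. The other 2 lay above 0 by log2 fold change, Coch (0.17 ± 0.27) and Pou3f4 (0.39 ± 0.24), and overlapped between the groups. Endothelial markers were at 59.7 to 78.6 and 74.7 to 76.5 CPM, with 0 of 3 called. The summed levels of these supporting tissue types overlapped between the groups.

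Some lists did separate the groups. Supporting epithelium markers were at 1653 to 1850 CPM in controls and 2022 to 2451 in degenerated libraries, with 1 of 7 (Cdh1) called higher. Gjb2 held most of that sum, at 1107 ± 58.9 and 1418 ± 122 CPM. By log2 fold change 5 of the 7 lay above 0 and 2 below, Fgfr3 (-0.35 ± 0.94) and Tecta (-2.64 ± 1.57). Hair cell markers were at 679 to 967 and 478 to 611 CPM, with Ocm and Slc26a5 of 7 called lower. Ocm was at 154 ± 17.0 and 2.69 ± 1.67 CPM, and Slc26a5 at 11.2 ± 4.31 and 0.315 ± 0.178 CPM. The other tested hair cell markers, Myo7a, Otof, Myo6, Pou4f3 and Tmc1, overlapped between the groups. By log2 fold change 6 of the 7 lay below 0 and 1 above, Myo7a (0.15 ± 0.42). Summed neuron markers were lower too, with Calb2 and Pvalb of 11 called. By log2 fold change 9 of the 11 lay below 0 and 2 above, Gata3 and Prph, and Tubb3 was near level (-0.039 ± 0.13). Macrophage markers overlapped at 608 to 2345 and 1356 to 2605 CPM, with 1 of 4 (C1qb) called higher. Lyz2 held most of these sums, at 386, 2164 and 1941 CPM in controls and 1082, 1099 and 2283 CPM in degenerated libraries. C1qb alone lay wholly above the controls, and by log2 fold change 2 of the 4 lay above 0 and 2 below. Schwann cell markers (5515 to 9678 and 4848 to 7660 CPM) and blood markers (4607 to 41308 and 3914 to 15403 CPM) overlapped, with no call among 7 and 6. Skeletal muscle markers were at 4.24 to 377 CPM in controls, the top value in control replicate 3, and 1.13 to 4.93 in degenerated libraries, with Myh2 at 0 throughout. The part of these cell types in the values of Lox, Loxl4, Ccn2 and Sdc4 was not tested.

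**Figure D5:**
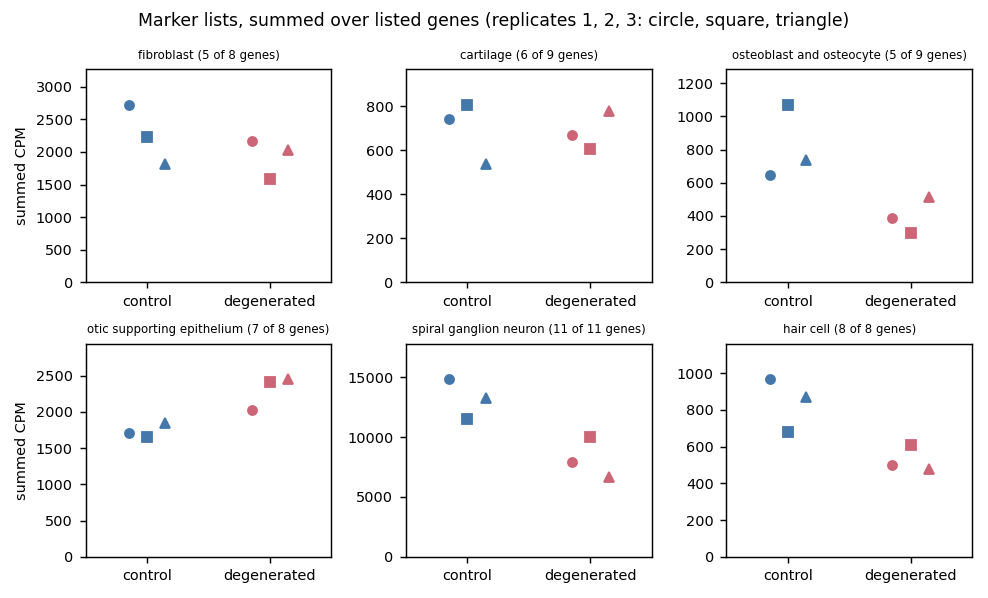
Summed CPM of 6 marker lists in control and degenerated libraries (1 point a library, its shape the replicate number). Osteoblast, neuron and hair cell markers lie lower in degenerated libraries (300.4 to 514, 6711 to 10052 and 478 to 611 CPM), supporting epithelium markers higher (2022 to 2451 CPM), and fibroblast and cartilage markers overlap.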

How the data were processed

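RNA-seq counts were analysed as the authors deposited them, 1 raw count table of 65535 rows and 6 libraries. Although titled a gene table, its rows are Ensembl transcripts, so a design written for gene rows was kept by adding up the listed transcripts of each gene. With GENCODE M21 (GRCm38), 65272 transcripts matched and 263, with 0.125% of counts, did not. With its header the table has 65536 lines, the row limit of an older spreadsheet format, so it may have been shortened, and an unlisted transcript says nothing of expression. The table lists 46.0% of annotated transcripts, and 17789 of 33676 genes have all of theirs. The submitters' processing notes name Bowtie 0.12.2 and the builds mm8 and mm10, while the study's methods name Hisat2 and StringTie; which of them made the table, the annotation, and strand handling are not stated in the labels or methods. A partly listed gene can move through a shift between transcripts.

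Counts were filtered with filterByExpr (14118 genes, 26065 transcripts), scaled by TMM and fitted with edgeR 4.0.16 (quasi-likelihood F test, R 4.3.3), 3 degenerated against 3 control libraries with no covariate. The common biological coefficient of variation was 0.488. p-values were adjusted by Benjamini-Hochberg over all genes or all transcripts, and the fitted fold changes used a prior count of 0.125. With 3 against 3 libraries an exact two-sided permutation test cannot give a p below 0.1, so none is used. The floor of 3 counts covers counting error only. DESeq2 1.42.0, edgeR's exact test, RLE and upper-quartile scaling, no filter, a mean count of at least 10, the most abundant transcript alone, the replicate number as a block, and leaving out each library were alternatives. TPM used the lengths of the listed transcripts.

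The members, the pathway lists and the marker lists were chosen with earlier results of these data known. All members and their transcripts with a mean count of 10 or more were named, and from each pathway list up to 4 called genes with the smallest p or, with none, the 1 with the smallest p. Col1a2, Col24a1, Sdc2, Sparcl1, Tgfbi and Thbs3 were added after their values were seen.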

Additional observations from a re-analysis of the deposited data

How the results depend on the processing

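The calls of Lox, Loxl4 and Sdc4 held under every alternative run, with log2 fold changes of 1.11 to 1.71, 1.52 to 1.97 and 0.62 to 0.77, and no result changed sign among those called. The 284 genes called higher became 479 with DESeq2, 160 with the replicate block and 144 to 339 without single libraries, and the 101 called lower became 306, 58 and 76 to 158. Over transcripts, the 296 called higher became 138 with the replicate block and 211 to 412 without single libraries, and the 170 called lower became 83 and 152 to 230. Members called higher numbered 3 with the replicate block, which lost Ccn2 (0.72), and 3 to 4 without single libraries. Members called lower numbered 1 (Comp) with DESeq2 and 0 to 1 without single libraries. The 4 member transcripts called higher became 2 with the replicate block and 2 to 4 without single libraries, and those called lower 0 to 1. The block also lost the call of Axl (0.42) and changed no other call among the members and the 7 pathway genes named by rule. Replicate numbers did not pair the libraries: deviations from the group means correlated at 0.160, -0.0905 and 0.0674 between same-numbered libraries. The causes of these changes were not tested. Loxl4 rested on 64 to 87 counts in each control, fewer than any other tested member.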
